A study of Mus musculus with 12 samples.

Results

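The immediate-early genes examined here were Fos, Fosb, Fosl2, Jun, Junb, Egr1, Egr2, Atf3, Ier2 and Nr4a1, and all 10 were found by symbol among the 23284 genes of the count table. All 10 passed the filter on low counts, which kept 14832 genes. Their RNA was measured by RNA sequencing of polyadenylated transcripts from mandibular condylar fibrocartilage, the mixed fibrous and cartilaginous cap of the lower jaw's joint head, with every cell type of the sample included. The 12 libraries came from female C57BL/6 mice that were ovariectomized at 16 weeks of age and sampled at 17 weeks, after 1 week with a slow-release pellet. The 4 groups were wild-type under placebo (WT placebo, n = 2), wild-type under 17β-estradiol (WT E2, n = 3), estrogen receptor alpha knockout under placebo (ERalphaKO or KO placebo, n = 4) and ERalphaKO under E2 (KO E2, n = 3). All 4 groups therefore lacked their ovaries. The E2 pellet held 0.01 mg for release over 60 days. The part of the receptor gene that the knockout removes, and whether each library is 1 animal or a pool, are not stated in those sources that were available here, and p-values therefore measure only the spread between these samples.

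Immediate-early genes are transcribed within minutes of a stimulus, because the factors that switch them on are already present in the cell and need only to be phosphorylated. Growth factors, mechanical load, injury, and the handling and digestion of tissue are among the stimuli known to induce them, and their RNA is short-lived, so that the level returns to baseline after a brief pulse. Most encode transcription factors: FOS and JUN proteins pair to form AP-1, which in cartilage is known for the control of matrix-degrading enzymes and of chondrocyte maturation.

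The sequence just before the start site is shown for 6 of the genes: the 4 with the largest differences between libraries, Egr2 because its window holds a CArG box, the site of serum response factor, and Fosl2 because it was the 1 gene that did not share the pattern described below. RefSeq windows of 250 bases upstream of the start were used for 8 of the 10 genes. Egr1 and Ier2 were not included, so the motif counts below leave them out. These windows and motifs were chosen after the expression values were known. Capitals mark matches on either strand to the cyclic AMP response element core (TGACG), the EGR site (GCGNGGGCG), the TATA box (TATAAA) and the CArG box. Coordinates are those of the RefSeq build GRCm38.p6, whereas the counts were made on mm9. The Egr2 window is that of the third of its 5 annotated start sites.
Fos (GRCm38.p6, chr12:85473640-85473889, plus strand): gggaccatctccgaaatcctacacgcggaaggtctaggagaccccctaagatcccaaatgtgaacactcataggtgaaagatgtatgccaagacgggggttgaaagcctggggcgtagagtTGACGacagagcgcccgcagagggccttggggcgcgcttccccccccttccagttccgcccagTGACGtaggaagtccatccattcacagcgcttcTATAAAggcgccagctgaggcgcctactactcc
Fosb (GRCm38.p6, chr7:19310046-19310295, minus strand): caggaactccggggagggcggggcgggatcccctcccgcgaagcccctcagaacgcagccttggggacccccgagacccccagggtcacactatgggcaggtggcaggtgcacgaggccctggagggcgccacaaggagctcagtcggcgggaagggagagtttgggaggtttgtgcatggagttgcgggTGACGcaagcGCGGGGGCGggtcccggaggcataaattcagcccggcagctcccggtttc
Nr4a1 (GRCm38.p6, chr15:101266596-101266845, plus strand): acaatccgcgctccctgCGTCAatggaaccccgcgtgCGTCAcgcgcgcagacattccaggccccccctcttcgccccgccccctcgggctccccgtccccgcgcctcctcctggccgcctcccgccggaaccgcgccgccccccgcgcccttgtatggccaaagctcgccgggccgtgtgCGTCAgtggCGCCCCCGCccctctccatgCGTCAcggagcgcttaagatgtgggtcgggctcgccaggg
Atf3 (GRCm38.p6, chr1:191183334-191183583, minus strand): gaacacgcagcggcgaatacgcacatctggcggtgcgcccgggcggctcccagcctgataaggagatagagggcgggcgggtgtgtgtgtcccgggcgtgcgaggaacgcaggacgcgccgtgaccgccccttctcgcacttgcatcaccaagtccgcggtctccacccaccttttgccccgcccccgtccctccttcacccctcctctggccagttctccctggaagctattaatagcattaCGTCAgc
Egr2 (GRCm38.p6, chr10:67537619-67537868, plus strand): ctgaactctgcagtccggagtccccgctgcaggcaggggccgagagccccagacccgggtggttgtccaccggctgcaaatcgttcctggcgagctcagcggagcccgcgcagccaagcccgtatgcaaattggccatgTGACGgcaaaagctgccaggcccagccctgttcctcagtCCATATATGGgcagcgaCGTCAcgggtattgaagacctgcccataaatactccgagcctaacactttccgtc
Fosl2 (GRCm38.p6, chr5:32136222-32136471, plus strand): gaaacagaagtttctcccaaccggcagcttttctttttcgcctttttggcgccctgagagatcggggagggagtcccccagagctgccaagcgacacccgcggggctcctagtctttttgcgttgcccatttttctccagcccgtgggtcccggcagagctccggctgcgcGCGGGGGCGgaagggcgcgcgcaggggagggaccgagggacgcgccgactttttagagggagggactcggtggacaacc

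The core TGACG, which CREB and ATF proteins are known to bind, was present for 6 of the 8 genes, where 17.8% of all 32851 windows of the same length held it. Egr2 has 5 windows and was counted where any held the motif: those of its starts 3, 4 and 5 held TGACG and those of starts 1 and 2 did not, so its count is not on the footing of single windows. Nr4a1 held 4 copies, Fos and the printed Egr2 window held 2 each, and Fosb, Junb and Atf3 held 1 each. The Fos copy at position -66, counted back from the start, lies ahead of a TATA box at position -33. The EGR site was found for 3 genes (Fosb, Fosl2 and Nr4a1), against 4.7% of all windows, and the TATA box in 1 (Fos), against 12.4%. The CArG box was found for 1, Egr2, in the windows of starts 2 to 5, against 1.47% of all windows. None of the windows of the 8 genes held the AP-1 site TGANTCA (6.75% of all windows) or the full palindromic estrogen response element (GGTCA and TGACC, 3 bases apart) (0.0639%), which says only that these letters are not in these 250 bases. An EGR site can overlap other GC-rich motifs, and a match describes the sequence, not a site in use.

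Total counts ranged from 9696434 to 28750636 per library, with WT placebo replicate 2 the deepest and KO placebo replicate 4 second at 25222775. The summed level of 12 fibrocartilage markers, among them Col1a1, Col2a1 and Acan, ranged from 74030 to 115900 CPM (a gene's counts scaled to the size of its library). Most of that sum was Col1a1 and Col1a2. Over the libraries other than WT placebo replicate 2 and KO placebo replicate 4, their medians were 36540 and 42270 CPM. Over the same libraries Col2a1 ranged from 1156 to 14780 CPM. The sum therefore says little about the cartilage markers among the 12. Osteoblast markers summed to between 4077 and 10150 CPM. Esr1, which encodes the deleted receptor, lay between 8.52 and 17.5 CPM in the 5 WT libraries and between 3.65 and 5.78 CPM in the 7 KO libraries, without overlap. Skeletal muscle and granulocyte markers varied widely between libraries of the same group, and their values stand beside the results they touch. In such bulk samples, more cells of a type and more RNA per cell cannot be told apart.

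Immediate-early RNA was in excess in 2 of the 12 libraries, both under placebo and 1 of each genotype: WT placebo replicate 2 and KO placebo replicate 4. These were the 2 highest libraries for 9 of the 10 genes, the exception being Fosl2. They were the 2 highest for 118 of the 14832 genes tested (0.796%). The 2 libraries were singled out from the values of these same 10 genes, so the 9 of 10 is a description and not a test. No gene of the 10 differed between the study's groups by edgeR's quasi-likelihood test after adjustment over all genes. The mean level under E2 was below that under placebo in either genotype for 9 of the 10 genes, and without these libraries most of those differences changed sign or shrank.

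Fos, the partner of JUN proteins whose induction is the textbook immediate-early response, measured 45.9 and 358 CPM in WT placebo. It measured 40.1, 25.2 and 48.2 CPM in WT E2, 71.0, 43.6, 34.1 and 406 CPM in KO placebo, and 45.7, 43.9 and 32.2 CPM in KO E2. One library in each placebo group was therefore many times above its group-mates, and the remaining 10 libraries overlapped across all 4 groups, between 25.2 and 71.0 CPM. WT placebo replicate 2 was 7.8-fold above replicate 1, and KO placebo replicate 4 was 8.19-fold above the mean of replicates 1 to 3. The group means ± SD were 202 ± 221 CPM in WT placebo (n = 2) and 139 ± 179 CPM in KO placebo (n = 4), with an SD larger than the mean in both. Under E2 they were 37.8 ± 11.7 CPM in WT and 40.6 ± 7.34 CPM in KO (n = 3 each).

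Fosb, which encodes another FOS protein and the long-lived truncated form deltaFosB, showed the largest excess. It measured 6.51 and 87.3 CPM in WT placebo, 5.37, 3.86 and 10.2 CPM in WT E2, 10.4, 11.4, 2.48 and 199.5 CPM in KO placebo, and 25.1, 4.84 and 10.2 CPM in KO E2. The excess was 13.4-fold in WT placebo replicate 2 and 24.7-fold in KO placebo replicate 4. Fosb also varied most among the remaining libraries, by 10.1-fold from lowest to highest, with KO E2 replicate 1 at the top of them.

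Fosl2, which encodes the FOS-family protein Fra-2 and is known for a slower and more sustained expression, did not share the excess. Its level was 194.5 and 172 CPM in WT placebo, 217, 193.5 and 144 CPM in WT E2, 171, 169, 177.5 and 209.7 CPM in KO placebo, and 222, 180 and 214 CPM in KO E2. WT placebo replicate 2 was 0.884 times replicate 1 and ninth of the 12 libraries, and the 4 groups overlapped.

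**Figure D1:**
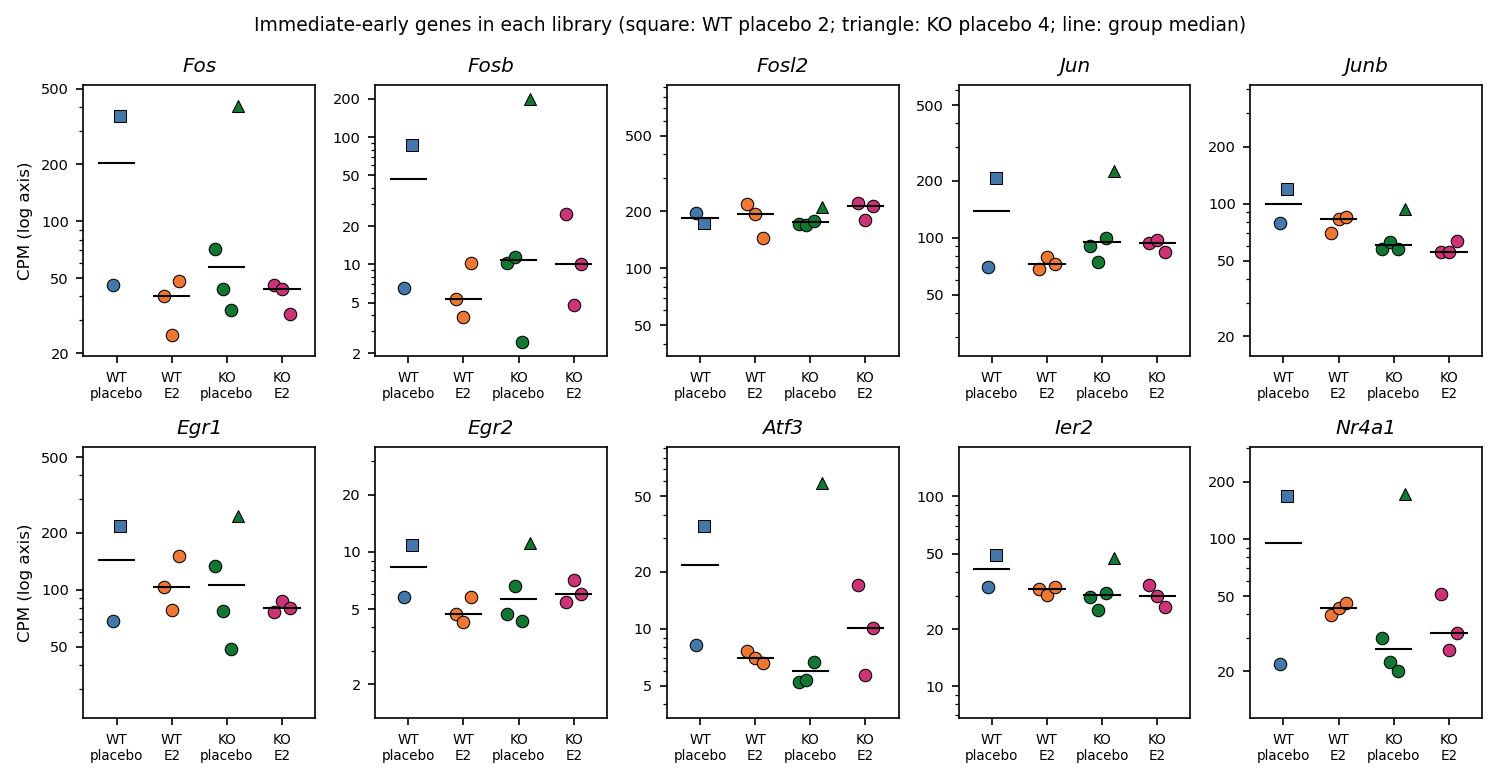
Level of each of the 10 genes in the 12 libraries, in CPM on a log axis whose range differs between panels, by group. Points are single libraries, the square is WT placebo replicate 2, the triangle is KO placebo replicate 4 and lines are group medians. Both marked libraries stand above the rest for 9 genes, and Fosl2 is the exception.

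Jun, the partner of FOS in the classic AP-1 dimer, measured 70.2 and 205 CPM in WT placebo, 68.1, 78.85 and 72.7 CPM in WT E2, 90.25, 74.7, 99.1 and 224 CPM in KO placebo, and 93.5, 97.7 and 83.7 CPM in KO E2. The same 2 libraries stood out by 2.92-fold and 2.54-fold, and the remaining 10 varied by 1.45-fold from lowest to highest. Junb, a JUN protein known as a weaker activator that can oppose c-Jun, measured 78.8 and 120.1 CPM in WT placebo and 70.3, 83.1 and 85.2 CPM in WT E2. In KO it measured 57.8, 62.5, 57.4 and 94.2 CPM with placebo, then 55.6, 55.7 and 63.6 CPM with E2. The excess of Junb was smaller, 1.52-fold in WT placebo replicate 2 and 1.59-fold in KO placebo replicate 4.

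Atf3, a stress-induced bZIP factor that can dimerize with JUN proteins, measured 8.21 and 35.1 CPM in WT placebo, 7.63, 7.01 and 6.61 CPM in WT E2, 5.27, 5.37, 6.66 and 58.4 CPM in KO placebo, and 17.05, 5.68 and 10.1 CPM in KO E2. Its excess was 4.27-fold and 10.1-fold in the respective libraries, and KO E2 replicate 1 was the highest of the rest.

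Among the zinc-finger factors, Egr1, which responds to serum and to mechanical strain, measured 68.6 and 216.5 CPM in WT placebo, 103, 78.4 and 151 CPM in WT E2, 133, 77.0, 48.4 and 245 CPM in KO placebo, and 75.9, 86.7 and 80.2 CPM in KO E2. Its excess was 3.15-fold and 2.85-fold. The remaining libraries of Egr1 spanned 3.11-fold, so that the excess was about as large as the range among them. Egr2, its low-level relative, lay between 4.28 and 7.15 CPM in those 10 libraries and at 10.9 and 11.1 CPM in WT placebo replicate 2 and KO placebo replicate 4.

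Nr4a1, an orphan nuclear receptor also called Nur77, measured 21.9 and 168 CPM in WT placebo, 39.7, 43.2 and 45.8 CPM in WT E2, 30.0, 22.3, 20.2 and 172 CPM in KO placebo, and 51.6, 26.1 and 31.8 CPM in KO E2. The excess was 7.67-fold and 7.09-fold, close to that of Fos. Ier2, which encodes a small nuclear protein of less defined function, lay between 25.3 and 34.2 CPM in the remaining libraries. It stood at 49.0 CPM in WT placebo replicate 2 and 47.3 CPM in KO placebo replicate 4, an excess of 1.46-fold and 1.65-fold.

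The order of the genes by their excess was nearly the same in both libraries, which share no samples: Spearman's rho between the 2 sets of folds was 0.952 over the 10 genes, given as a description since the genes of a library are not independent. Fosb, Fos, Nr4a1 and Atf3 led in each, and Fosl2 came last in each. On the scale of log2 CPM, the median gene of the 10 lay 1.60 above the other WT placebo library in WT placebo replicate 2 and 1.49 above the mean of the other KO placebo libraries in KO placebo replicate 4. The median over all genes tested was -0.000932 and -0.0167. More than 1 log2 unit of excess was found for 6 and 7 of the 10 genes in the respective libraries, and for 3.47% and 0.836% of all genes. Since both libraries were singled out by these same genes, high values there are built into that choice. In the libraries of the E2 groups the median of the 10 genes stayed within -0.09 and 0.23.

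**Figure D2:**
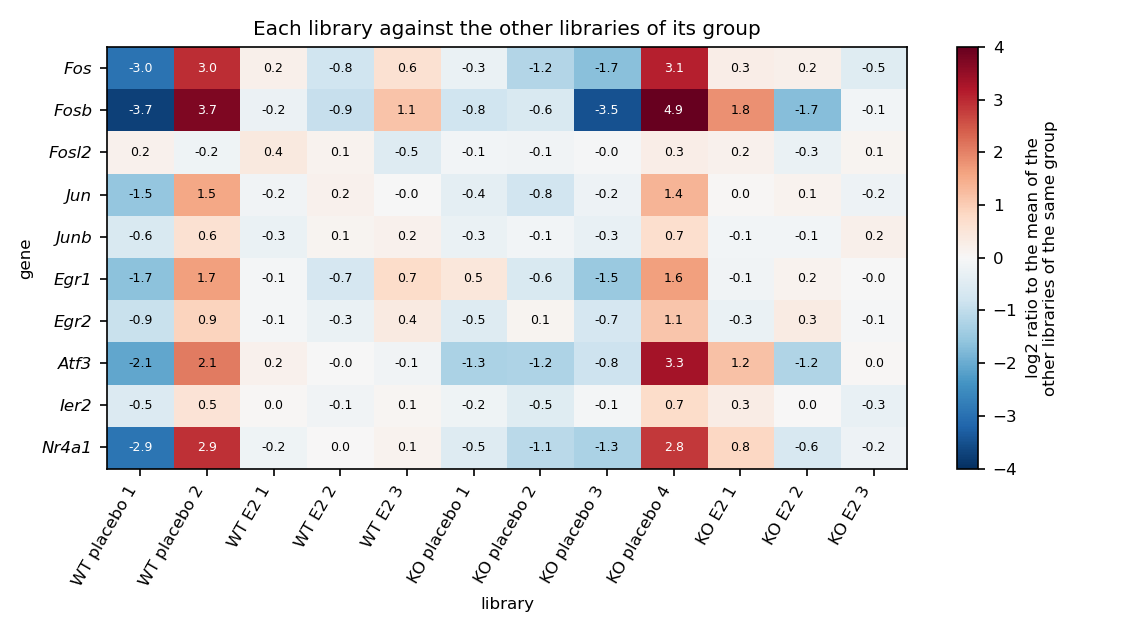
Log2 ratio of each library to the mean log2 CPM of the other libraries of its group, for the 10 genes. Red marks a higher and blue a lower level. WT placebo has only 2 libraries, so its columns mirror each other, and the red columns of WT placebo 2 and KO placebo 4 hold all genes but Fosl2 in the former.

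Levels can be compared between genes only per length, here as CPM per kilobase of exon, with exon lengths from GENCODE M21, which may differ from the annotation behind the counts. Over the 10 libraries without the excess, the median was highest for Junb at 34.9 CPM per kilobase, followed by Fosl2 at 28.6 and Jun at 25.5. Fos at 20.8, Ier2 at 20.1 and Egr1 at 17.7 CPM per kilobase came next, then Nr4a1 at 11.5. Atf3 at 3.17, Fosb at 2.21 and Egr2 at 1.76 CPM per kilobase were lowest. Neighbours in this order overlapped in their ranges, from Junb (30.7 to 47.1) and Fosl2 (22.1 to 33.9) at the top to Fosb (0.655 to 6.63) and Egr2 (1.34 to 2.24) at the bottom. In the libraries with the excess the order differed: Fos became the most abundant per length, at 170 CPM per kilobase in WT placebo replicate 2 and 193 in KO placebo replicate 4, while Junb stood at 66.4 and 52.1. Fosb stood higher in the order as well, with 23.1 and 52.7 CPM per kilobase.

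The spread within groups was correspondingly wide. The pooled SD of log2 CPM within groups was 1.98 for Fosb, 1.26 for Fos, 1.21 for Atf3 and 1.18 for Nr4a1, which 1.23%, 3.02%, 3.31% and 3.49% of all genes tested exceeded. Fosl2 had an SD of 0.20, exceeded by 48.7% of genes, and the other genes lay between 0.27 (Junb) and 0.78 (Egr1). The median SD over the 10 genes was 0.68, against 0.19 over all genes. Without the 2 libraries, an alternative chosen after the data were seen, it was 0.29 against 0.20. Fosb then had an SD of 1.05, Egr1 0.51, Jun 0.15 and Junb 0.11.

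The 12 libraries fell into 2 clusters for these genes, so no relation between pairs of them was taken from all 12. Over all 12, 33 of 45 pairs passed by Pearson's r (adjusted permutation p under 0.05), but 0 did by Spearman's rho and 0 with values centred within groups. Centred r stayed high in pairs without Fosl2, from 0.703 (Egr2 and Ier2) to 0.956 (Fos and Nr4a1). With Fosl2 it ranged from -0.0728 to 0.429. Permutation within such small groups often returns the 2 high libraries to their places. The 0 therefore does not show that co-variation within groups is absent. Over the 10 remaining libraries, the 45 pairs were examined on log2 CPM with two-sided permutation tests of 100000 resamples, and no pair passed after Benjamini-Hochberg adjustment. Pearson's r was positive for 24 of the 45 pairs, with a median of 0.0548. Of the 2 pairs with an unadjusted p under 0.05, Jun and Junb had r = -0.79 (rho = -0.78; permutation p = 0.0122 and 0.0112; adjusted p = 0.527 and 0.252), and Fosl2 and Atf3 had r = 0.70 (rho = 0.86; permutation p = 0.0234 and 0.00242; adjusted p = 0.527 and 0.109). These relations cross groups and were not separated from the group means in this subset, which leaves 1 WT placebo library.

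Other genes of the immediate-early programme took part unevenly. Counting genes for which WT placebo replicate 2 and KO placebo replicate 4 were the 2 highest libraries, there were 5 of 12 other immediate-early transcription factors (41.7%), 4 of 22 other immediate-early effectors (18.2%), 3 of 19 feedback inhibitors (15.8%) and 1 of 13 AP-1 and bZIP partners, Jund (7.69%). For the upstream kinases and factors that carry the signal, among them Srf, the count was 0 of 21. Lists outside the programme reached similar shares: 2 of 12 fibrocartilage markers (16.7%) and 2 of 10 heat-shock genes (20%). The count was 0 for the hypoxia and glucocorticoid genes and for muscle, granulocyte, macrophage, erythroid, adipocyte, endothelial and osteoblast markers. The shares of the effectors and feedback inhibitors are therefore not particular to the programme. The lists were drawn up with results of these data known, and the background of 0.796% above applies to each count.

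The genes most like the 10 were ranked by Pearson's r, over the 12 libraries, between their log2 CPM and the mean of the standardised values of the 10 genes, among 13536 genes with a mean of at least 1 CPM. This ranking is a description with no test, and it rests largely on the same 2 libraries. The first was Socs3, a feedback inhibitor of cytokine receptors, with r = 0.96. It measured 63.8 and 132 CPM in WT placebo, 70.25, 58.8 and 70.0 CPM in WT E2, 69.1, 65.7, 50.0 and 132 CPM in KO placebo, and 63.7, 66.3 and 58.6 CPM in KO E2, so that again 1 library of each placebo group stood apart. Csrnp1 (r = 0.90) and Dusp8 (0.83) followed, then Tbcd (0.78), Ppp1r15a and Sertad1 (0.77 each), Tnfaip6 (0.77), Dusp1 and Slc30a9 (0.76 each) and Plk3 (0.76). Over the 10 remaining libraries, r ranged from -0.18 for Ppp1r15a and -0.15 for Slc30a9 to 0.56 for Socs3 and 0.68 for Plk3. One predicted gene was passed over, and 4 of the 10 named genes were also in the lists above.

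Dusp1, a phosphatase that switches off MAP kinases, was 7.95-fold higher in WT placebo replicate 2 than in replicate 1 and 2.34-fold higher in KO placebo replicate 4 than in the mean of its group-mates. Its values were 52.9 and 421 CPM in WT placebo, 114, 74.4 and 197 CPM in WT E2, 213, 96.8, 77.0 and 301 CPM in KO placebo, and 134, 144 and 127 CPM in KO E2. The remaining libraries covered a wide range as well, from 52.9 to 213 CPM. Nr4a3, a relative of Nr4a1 named here after its values were seen, showed the excess in 1 library only. It stood at 5.67 CPM in KO placebo replicate 4 against 0.239, 1.04 and 1.05 CPM in its group-mates, whereas WT placebo held 1.06 and 1.43 CPM.

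**Figure D3:**
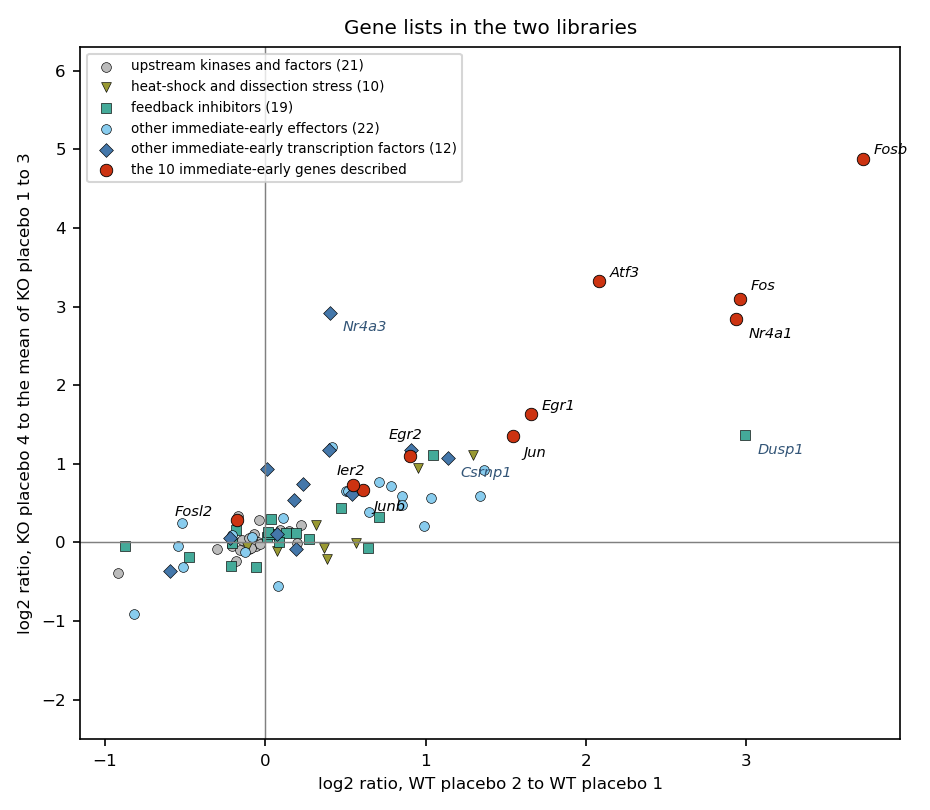
Log2 ratio of WT placebo replicate 2 to replicate 1 (horizontal axis) against that of KO placebo replicate 4 to the mean log2 CPM of replicates 1 to 3 (vertical axis). Each point is a gene, and numbers in the legend are genes per list. The 10 immediate-early genes described run from Fosl2 near 0 to Fosb at the upper right, while the 21 upstream kinases and factors lie around 0.

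Markers of other tissue were compared with the excess library by library. The summed level of the 11 tested skeletal muscle markers was 7.04 and 2341 CPM in WT placebo, 1056, 620 and 212 CPM in WT E2, 12.1, 988, 5665 and 819 CPM in KO placebo, and 48.7, 45.9 and 8.33 CPM in KO E2. All 11 were higher in WT placebo replicate 2 than in replicate 1, and 1 of the 11 had no count in replicate 1. KO placebo replicate 3 had the highest muscle level of all libraries. It had the lowest Fos of its group (34.1 CPM) and the lowest Fosb (2.48 CPM) and Egr1 (48.4 CPM) of all libraries. Its Jun, at 99.1 CPM, was the highest of the 10 libraries without the excess, and its Atf3 (6.66 CPM) and Ier2 (31.1 CPM) were above those of KO placebo replicates 1 and 2. WT E2 replicate 1 and KO placebo replicate 2, with muscle levels above that of KO placebo replicate 4, had Fos at 40.1 and 43.6 CPM.

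The summed level of the 10 granulocyte markers was 896 and 73.3 CPM in WT placebo, 6.32, 3.58 and 1133 CPM in WT E2, 259.8, 26.8, 16870 and 2386 CPM in KO placebo, and 7260, 18.4 and 702 CPM in KO E2. All 10 were lower in WT placebo replicate 2 than in replicate 1. In KO placebo replicate 4 the direction depended on the scale. All 10 were above the mean log2 CPM of its group-mates. On CPM they were 0.344 (Mpo) to 0.487 (Mmp8) times the mean of the group-mates, which include replicate 3. The library with the highest granulocyte level, KO placebo replicate 3, did not show the excess. Adipocyte markers (6 tested) reached 78.4 CPM in WT placebo replicate 2, the highest of the 12 libraries, and 19.1 CPM in KO placebo replicate 4, inside the range of the rest. These were also the 2 highest libraries for Acan and Sox9, 2 of the 12 fibrocartilage markers, named here after their values were seen. Acan was 1.5-fold higher in WT placebo replicate 2 and 1.38-fold higher in KO placebo replicate 4 than in the group-mates. Sox9 was 1.29-fold and 1.53-fold higher. Of the 10 heat-shock genes, 2 were highest in these libraries. Hspa1a, an inducible heat-shock chaperone named here after its values were seen, measured 10.9 CPM in WT placebo replicate 2 and 13.7 CPM in KO placebo replicate 4, against 4.4 to 10.6 CPM in the rest. The part of muscle, granulocytes or any other of these cells in the excess was not tested.

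**Figure D4:**
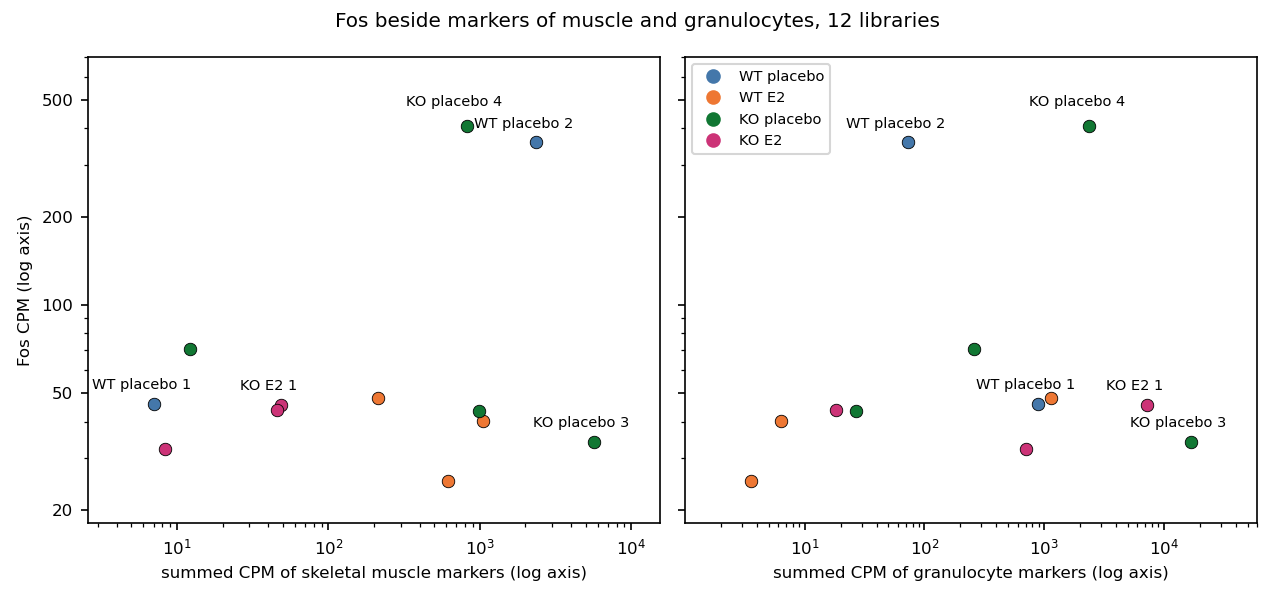
Fos level (vertical log axis, CPM) against the summed level of skeletal muscle markers (left) and granulocyte markers (right, horizontal log axes, CPM) in the 12 libraries, coloured by group. Both libraries with high Fos, at 358 and 406 CPM, have marker levels inside the range of the libraries with low Fos, and KO placebo 3, at the far right of both panels, has 34.1 CPM. The part of muscle and granulocytes in the Fos level was not tested.

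The first question of the design was whether E2 changes these genes through its receptor. In WT, 0 of the 10 genes passed the edgeR test at an adjusted p of 0.05, where 68 of 14832 genes (0.458%) did. At an unadjusted p under 0.05 there was 1 of 10, against 8.14% of all genes. The fold changes of 9 of the 10 were negative, with a median log2 fold change of -0.84 against -0.0043 over all genes. Adipocyte markers (6 of 6 negative, median -4.29, 5 of 6 with an unadjusted p under 0.05) and muscle markers (11 of 11 negative, median -0.89, 0 of 11) had the same sign. Macrophage markers had the opposite one (9 of 10 positive, median 0.73, 6 of 10), and none of these markers passed after adjustment. The part of adipocytes and macrophages was not tested, and with the muscle level in the fit the median of the 10 genes was -0.89. Fos had -2.42 ± 1.02 (SE; edgeR adjusted p = 0.578), Fosb -2.87 ± 1.57 (adjusted p = 0.692) and Atf3 -1.62 ± 1.02 (adjusted p = 0.755). Without WT placebo replicate 2, the values became -0.28 ± 1.14 for Fos, -0.0118 ± 1.96 for Fosb and -0.21 ± 1.27 for Atf3, the median of the 10 became -0.0395, and 5 of the 10 changed sign. WT placebo is then a single library that is assumed to vary like the other groups. Nr4a1 was among those that turned, from -1.15 ± 0.94 to 0.97 ± 1.13.

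The libraries of WT placebo and WT E2 did not overlap for 3 of the 10 genes, against 26.9% of all genes, a share that groups of 2 and 3 libraries reach easily. These were Egr2, Atf3 and Ier2, each lower under E2. For Ier2 the nearest libraries stood at 33.4 CPM (placebo) and 33.1 CPM (E2). In the authors' deposited table for this comparison, 0 of the 10 genes had an adjusted p under 0.05, where 1.75% of genes did. The lowest of the 10 there was Atf3, with a log2 fold change of -1.28 ± 0.417 and an adjusted p of 0.098. Fos had -1.25 ± 0.511 there and -2.42 ± 1.02 by edgeR, whereas Ier2 had -0.359 there and -0.370 by edgeR. How the deposited fold changes were estimated is not known here. They and their SE, here and below, may not be on one scale with those of edgeR.

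In ERalphaKO, 0 of the 10 genes passed for E2 against placebo, where 0 of 14832 genes (0%) did by edgeR and 0 by DESeq2, and 0 of 10 had an unadjusted p under 0.05, against 5.7% of all genes. The median log2 fold change was -0.53, against 0 over all genes, and 9 of the 10 were negative. Fos had -1.77 ± 0.91 (adjusted p = 0.905) and Fosb -2.05 ± 1.38 (adjusted p = 0.955). Without KO placebo replicate 4, these became -0.29 ± 0.60 and 0.74 ± 0.91, the median became 0.16, and 6 of the 10 changed sign. Atf3 went from -0.78 ± 0.88 to 0.93 ± 0.50 and Nr4a1 from -0.74 ± 0.82 to 0.60 ± 0.57. With the mean log2 CPM of the muscle markers added to the fit the median was 0.0118, and 5 of the 10 changed sign. All 11 muscle markers had negative E2 fold changes in ERalphaKO, with a median of -6.01, and 11 had an unadjusted p under 0.05, but 0 passed after adjustment. The part of muscle in the difference of the immediate-early genes was not tested beyond this covariate.

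None of the 10 genes had libraries of KO placebo and KO E2 that did not overlap, against 5.67% of all genes. In the authors' deposited table for this comparison 0 of the 10 had an adjusted p under 0.05, where 0.0494% of genes did. For Fos, Fosb, Jun, Egr1 and Atf3 that table lists no adjusted p.

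**Figure D5:**
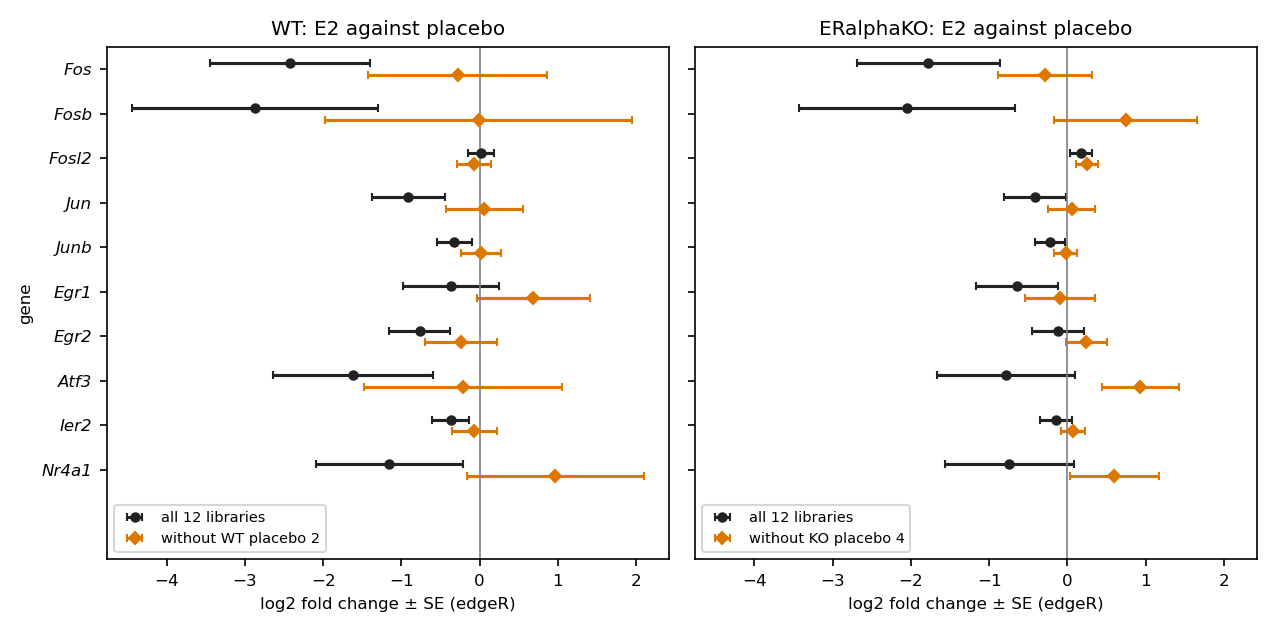
Log2 fold change of E2 against placebo, with its SE, from edgeR in WT (left) and ERalphaKO (right). Black circles use all 12 libraries, and orange diamonds leave out WT placebo 2 (left) or KO placebo 4 (right). The negative values of Fos and Fosb, such as -2.42 for Fos in WT, move to near 0 or above it when that 1 library is left out.

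The E2 effect averaged over genotypes pooled both contrasts. Fos had -2.10 ± 0.68 (unadjusted p = 0.0112, adjusted p = 0.509) and Fosb -2.46 ± 1.04 (unadjusted p = 0.0389, adjusted p = 0.598), and 0 of the 10 genes passed, against 0.0539% of all genes. At an unadjusted p under 0.05 there were 2 of 10, against 7.85%. Without both libraries, Fos had -0.28 ± 0.26 and Fosb 0.37 ± 0.62, and 8 of the 10 genes changed sign. Nr4a1 had 0.79 ± 0.22 in that fit (adjusted p = 0.889; over the alternatives its adjusted p ranged from 0.657 to 0.996), with its E2 libraries at 26.1 to 51.6 CPM and the 4 placebo libraries left at 20.2 to 30.0 CPM. The interaction of treatment with genotype, the test of dependence on the receptor, called 0 of the 10 genes, against 0.0539% of all genes, and 0 of 10 had an unadjusted p under 0.05, against 6.78%. For Fos that difference was 0.65 ± 1.33 (adjusted p = 0.952). Its SE leaves room for differences of several-fold in either direction, so a dependence of that size was not detectable with these libraries.

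The second question was whether loss of the receptor changes the genes at a given treatment. Under placebo, 0 of the 10 passed, against 0.0135% of all genes, and the libraries of the 2 genotypes did not overlap for 0 of 10, against 21.1%. One of the 10, Junb, had an unadjusted p under 0.05, against 8.93% of all genes, with -0.55 ± 0.21 (unadjusted p = 0.0249, adjusted p = 0.489). The result turned on which library was kept. Without WT placebo replicate 2 the median over the 10 genes went from -0.25 to 0.84, with Fos at 1.59 ± 1.25. Without KO placebo replicate 4 it went to -0.74, with Fos at -2.03 ± 0.65 (adjusted p = 0.444; range over the alternatives 0.444 to 0.997). Without both it was -0.023. Of the 10 genes, 0 in the authors' deposited table had an adjusted p under 0.05, where 1.82% of genes did, and for Fosb and Nr4a1 it lists none.

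The contrast under E2 compares groups without the 2 high libraries. In KO E2 replicate 1, however, 2 of the 10 genes lay more than 1 log2 unit above the mean log2 CPM of the group-mates. These were Fosb (1.82) and Atf3 (1.16), where 6.07% of all genes did so. By edgeR, 0 of the 10 genes differed between genotypes under E2, where 163 genes (1.1%) did. At an unadjusted p under 0.05 there were 0 of 10, against 11.5%. The libraries did not overlap for 2 of the 10, against 15.9% of all genes: Jun was higher in every KO library, at 83.7 to 97.7 CPM against 68.1 to 78.85 CPM, and Junb was lower, at 55.6 to 63.6 CPM against 70.3 to 85.2 CPM. These were 0.32 ± 0.42 for Jun (adjusted p = 0.854) and -0.45 ± 0.20 for Junb (adjusted p = 0.438). In the authors' deposited table for this comparison, which used the E2 libraries, Junb was called at -0.434 ± 0.126 with an adjusted p of 0.0202, the 1 call among the 10, where 3.75% of genes were called. Jun stood there at 0.326 ± 0.115 with an adjusted p of 0.0978.

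Junb was also the gene with the lowest p for genotype averaged over treatments, where 0 of the 10 passed by edgeR, against 0.978% of all genes, and 1 of 10 had an unadjusted p under 0.05, against 14%. It had -0.50 ± 0.15 (unadjusted p = 0.00622, adjusted p = 0.164). With DESeq2 it was called, at -0.49 ± 0.15 with an adjusted p of 0.0414, and it was the 1 of the 10 called there, where 3.54% of genes were. Over the 19 alternatives the adjusted p of Junb ranged from 0.0414 to 0.503 and its log2 fold change from -0.63 to -0.33, negative in each. Of the libraries in which Junb was highest, 1 is WT and the other is KO. Some lists of cell-type markers leaned to 1 sign between genotypes as well, and none of these markers passed the threshold. Muscle markers (11 of 11 negative, median -1.81) and macrophage markers (9 of 10 negative, median -0.24) had the sign of Junb. Granulocyte markers (10 of 10 positive, median 3.72) had the opposite one. An unadjusted p under 0.05 was found for 0 of 11 muscle, 3 of 10 macrophage and 4 of 10 granulocyte markers, against the 14% above. With the muscle level in the fit Junb had -0.45 ± 0.15 and with the granulocyte level -0.52 ± 0.17. The part of macrophages was not tested.

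Among the wider immediate-early lists, 2 genes did pass. Tiparp, a PARP-family enzyme known as a target of the aryl hydrocarbon receptor and of estrogen receptor alpha, measured 32.2 and 34.8 CPM in WT placebo and 69.75, 68.5 and 82.25 CPM in WT E2. In KO it lay at 35.7, 35.2, 28.0 and 40.75 CPM with placebo, then 39.2, 32.9 and 38.3 CPM with E2. Every WT E2 library stood above every other library, and neither library with the excess stood apart. Tiparp rose with E2 in WT by 1.13 ± 0.15 on the log2 scale, a 2.19-fold change (edgeR adjusted p = 0.0103), and was lower in KO than in WT under E2 by -0.99 ± 0.13 (adjusted p = 0.00522). The genotype difference under E2 was called in all 20 alternatives, with an adjusted p of at most 0.0282. The E2 effect in WT was called in 15 of 20, and without either WT placebo library the adjusted p was 0.183 (without replicate 1) or 0.148 (without replicate 2). Genotype averaged over treatments gave -0.47 ± 0.09 (adjusted p = 0.047), called in 5 of 19 alternatives. Macrophage markers had the signs of Tiparp in both contrasts, with 9 of 10 positive for E2 in WT (median 0.73, 6 of 10 with an unadjusted p under 0.05) and 8 of 10 negative for genotype under E2 (median -0.61, 6 of 10), and 0 passed after adjustment. Their summed level was 1129 and 844 CPM in WT placebo, 1464, 1007 and 1436 CPM in WT E2, and 1862, 847 and 1078 CPM in KO E2, so the sums overlapped. Their mean log2 CPM was 5.94 and 5.61 in WT placebo and 6.56, 5.99 and 6.53 in WT E2, without overlap. In KO E2 it was 6.08, 5.70 and 5.84, which overlapped with WT E2. Their part in the Tiparp difference was not tested.

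Dusp2, a phosphatase of MAP kinases known from activated blood cells, was higher in KO by 3.58 ± 0.63 on the log2 scale averaged over treatments (adjusted p = 0.0318). It measured 0.293 and 0.183 CPM in WT placebo, 0.753, 0.235 and 0.973 CPM in WT E2, 8.62, 10.8, 4.11 and 6.355 CPM in KO placebo, and 6.385, 0.526 and 1.84 CPM in KO E2. The WT values lie near the floor, with both of WT placebo below 0.309 CPM, the level of 3 counts in the smallest library. The size of the fold change is therefore uncertain. KO E2 replicate 2 lay inside the WT range, and 12 of 19 alternatives lost the call, with adjusted p up to 0.309. The log2 fold change lay between 2.96 and 3.81 in all 19. The granulocyte markers, given above, had the same sign, and with their level in the fit Dusp2 had a log2 fold change of 3.40 (adjusted p = 0.0546). In the remaining lists no gene passed in any contrast. Among the most expressed genes of each, Jund had 229 and 298.5 CPM in WT placebo and 187 to 345 CPM in KO placebo, and Atf4, a stress-response bZIP factor, had 257 to 309 CPM in placebo libraries. Klf6, an early-response zinc-finger factor, had 233.5 and 288 CPM in the libraries with the excess and 145 to 229 CPM in the rest.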

How the data were processed

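Polyadenylated RNA of 12 libraries was sequenced on Illumina HiSeq instruments, per the labels' protocols. The submitters' processing notes name bcl2fastq 2.17, TopHat and the mouse build mm9, and the authors deposited whole-number counts per gene symbol. For the aligner's version, the counting tool, the annotation and the strand the entry is "not given in the sources used here". Among the files, the authors' deposited comparison tables hold log2 fold changes with standard errors and adjusted p-values, with DESeq2's column names per the file headers. The 4 that compare groups differing in 1 factor were used, and the 2 others and the normalized table were not.

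From the counts, CPM were computed with scaling by trimmed mean of M values, and log2 CPM with a prior count of 2. Genes were kept by edgeR's group-wise filter with a minimum count of 10. Fits used edgeR 4.0.16 in R 4.3.3 (quasi-likelihood F test, 1 mean per group over all 12 libraries, 8 residual degrees of freedom), with Benjamini-Hochberg adjustment over the 14832 genes tested and a threshold of 0.05. The SE was derived as |log2 fold change| over the root of F. DESeq2 1.42.0, other size factors, no filter, a block for replicate number, marker covariates, fits of only the groups compared, and leaving out libraries were the alternatives. The script was tested on simulated data. Correlations used scipy 1.17.1.

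The 10 genes and all lists were chosen with earlier results of these data known. All 10 are named. From each list the text names up to 4 genes past the threshold, by p, or otherwise up to 2 of the highest mean CPM, and in addition the 10 other genes of at least 1 CPM with the highest Pearson r to the members' mean standardised log2 CPM, where predicted genes are counted but not named. Exceptions are marked where they occur. The values of 1 gene that the rule would name are not reported here. The alternative without 2 libraries, the motifs and the printed windows were also chosen after the values were seen. Same-numbered libraries did not all deviate together, and the labels tie no number to an animal or batch, so replicate numbers were not used as pairs.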

Additional observations from a re-analysis of the deposited data

Results flagged for a closer look

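In KO placebo, the group of 4, single libraries were compared with the rest by Dixon's ratio of the gap to the nearest library over the whole range, computed on CPM, for which chance marks about 1 group in 20 beyond the 95% critical value of 0.829. Of 24 genes checked, 10 were beyond it, and replicate 4 was the high library for each. Of the 10 immediate-early genes these were Fos (0.901), Fosb (0.955), Jun (0.836), Junb (0.86), Atf3 (0.974) and Nr4a1 (0.935). Of the other genes they were Csrnp1 (0.961), Dusp8 (0.918), Plk3 (0.901) and Nr4a3 (0.851). The genes are not independent, since all come from the same 4 libraries. On the log2 scale 4 of the 24 were beyond the critical value, 1 of them among the 10 immediate-early genes. Of the other genes, the 10 most like the immediate-early genes, among them Csrnp1, Dusp8 and Plk3, were chosen by their correlation over these same libraries, so a high replicate 4 is built into that choice. Tiparp, Dusp2, Jund and Nr4a3 were added to the check after their values were seen. WT placebo, with 2 libraries, and the groups of 3 cannot be examined this way.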

How the results depend on the processing

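None of the 10 genes was called by edgeR in any contrast or alternative that was run, and DESeq2 called 1 of the 10, Junb, for genotype averaged over treatments. Scaling and filter moved no median log2 fold change of the 10 genes across 0. With the muscle marker level in the fit the median went from -0.526 to 0.0118 for E2 in ERalphaKO (5 of 10 signs changed) and from -0.0989 to 0.086 for genotype averaged over treatments (3 signs), and with the granulocyte marker level from 0.126 to -0.0794 for genotype under E2 (3 signs). Without a change of sign, the muscle level moved it from 0.126 to 0.596 for genotype under E2 and from 0.456 to 0.96 for the interaction, and the granulocyte level from -0.252 to -0.471 for genotype under placebo and from -0.0989 to -0.374 for genotype averaged over treatments. Leaving out single libraries moved the median log2 fold change from -0.766 to 0.836 for genotype under placebo and from -0.521 to 1.05 for the interaction. With single libraries or both high libraries left out, the log2 fold change ranged from -1.97 to 0.97 for Nr4a1 with E2 in WT, from -2.86 to 0.748 for Fosb with E2 in ERalphaKO, from -1.54 to 0.364 for Atf3 and from -1.36 to 0.788 for Nr4a1 with E2 averaged over genotypes. The upper value of each, without both libraries, has the opposite sign to that from all 12. The number of correlated pairs of 45 (Pearson adjusted p under 0.05) was 33 over all libraries, and 0 by Spearman. It was also 0 centred within groups, although centred r stayed at 0.703 or more for pairs without Fosl2. The uncentred Pearson number ranged from 0 to 35 with 1 library left out. It was 0 without WT placebo replicate 2, without KO placebo replicate 4 or without both. The median SD of the 10 genes, 0.682, ranged from 0.54 to 0.728 and was 0.295 without both.

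The replicate block gave 0 calls among the 10 genes in all 7 contrasts. It moved their median for E2 in ERalphaKO from -0.526 to 0.16, with 6 of 10 signs changed: KO placebo replicate 4 is the 1 library with that number, so the block takes it out of the contrast. The block also moved the median from -0.252 to -0.714 for genotype under placebo, from -0.0989 to -0.584 for genotype averaged over treatments, from 0.456 to 0.914 for the interaction and from -0.583 to -0.209 for E2 averaged over genotypes. Of 15 same-numbered pairs, 9 correlated above 0.1 (range -0.326 to 0.5) and 6 of 12 libraries correlated best with their own number. The block moved the number of genes called from 68 to 18 for E2 in WT, from 163 to 62 for genotype under E2, and from 145 to 34 for genotype averaged over treatments, and the Tiparp call for E2 in WT was lost with it (adjusted p = 0.0542; range over the alternatives 2.05e-09 to 0.183).

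Counts of called genes over the whole table depended on the tool. DESeq2 called 245 genes for E2 in WT, 145 for genotype under placebo (edgeR 2), 491 for genotype under E2, 97 for the interaction (edgeR 8), 130 for E2 averaged (edgeR 8) and 568 for genotype averaged over treatments. Without both high libraries edgeR called 1, 0, 74, 0, 1 and 4 in the same order. Fits of the 2 groups compared were not run for the contrasts over 4 groups. WT placebo has 2 libraries, and single-library fits assume that the lone one varies like the other groups. A change of sign was counted as reversed only where both estimates exceeded their SE.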
